A study of Mus musculus with 30 samples.

Results

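Ripply3, Tbx1 and Emx2 are 3 of the 52630 genes of the time-course count table and of the 55487 genes of the passage count table, and each was found in both. They were chosen by their levels in these data, for a rise in EMM over the time course, in order to follow its timing and whether it lasted to passages P10 and P20. EMM (Enhanced Metabolic Media) is Serum/LIF medium in which galactose replaces glucose and pyruvate, so that mouse embryonic stem cells (ESCs) depend more on oxidative phosphorylation. All 30 libraries came from E14tg2a, an established mouse ESC line, with no genetic change stated. The time course held 12 libraries, 3 each from Serum/LIF (the control, labelled 0 h) and from 3, 9 and 24 h of EMM. Per the treatment protocol the control cells had a further 24 h in Serum/LIF, so the control is matched to the last time point and not to 3 h and 9 h. The passage experiment held 18 libraries, 3 for each of the media Serum/LIF, EMM and 2i/LIF after 10 passages (P10) and after 20 passages (P20). 2i/LIF is a defined medium with 2 kinase inhibitors and LIF, the cytokine that all of these media share. Serum/LIF and EMM hold serum, so EMM and 2i/LIF differ also in serum and base medium. The study's methods state that the 3 replicates came from independent experiments.

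Ripply3 encodes a small nuclear co-repressor. Ripply proteins bind T-box transcription factors through one stretch and Groucho/TLE co-repressors through another, and so turn a T-box activator into a repressor. Tbx1 encodes a T-box transcription factor of the pharyngeal arches and the heart field beside them, and its loss is known for the heart and thymus defects of DiGeorge syndrome. Ripply3 is known to bind Tbx1 protein in the pharyngeal endoderm and ectoderm. Emx2 encodes a homeodomain transcription factor needed for the dorsal forebrain and the urogenital tract. None of the 3 genes is counted among the usual markers of undifferentiated ESCs.

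In the GRCm38 (mm10) annotation GENCODE M21, Ripply3 (ENSMUSG00000022941) lies on the plus strand of chromosome 16, from 94328420 to 94336935. Tbx1 (ENSMUSG00000009097) lies on the minus strand of the same chromosome, from 18580979 to 18590671. Emx2 (ENSMUSG00000043969) lies on the plus strand of chromosome 19, from 59458372 to 59465357. Its first 264 bases overlap Emx2os, an antisense RNA gene. Emx2os had at most 3 counts in any time-course library and 0 counts in every passage library, and the time-course kit is not stated to keep strand, so reads of the shared bases cannot be told apart there.

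The defining stretches of the Ripply and Emx proteins are shown because they carry the known function of each family and let a reader see how near the paralogs are in sequence. In Ripply3, codons 40 to 43 of 152 encode the tryptophan-arginine-proline-tryptophan motif that binds Groucho/TLE proteins. The whole stretch shown for Ripply3 is in exon 2 of 4 (chr16:94329347-94329409, plus strand), and those of Ripply1 (chrX:139781128-139781187, minus strand) and Ripply2 (chr9:87015869-87015928, plus strand) are also in exon 2 of 4. The motif codons are in capitals, and the sequences are from the GENCODE M21 transcripts, 5′ to 3′ on the coding strand:
Ripply3: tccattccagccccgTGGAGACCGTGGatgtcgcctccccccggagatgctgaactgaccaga
Ripply1: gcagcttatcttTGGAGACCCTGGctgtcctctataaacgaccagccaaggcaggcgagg
Ripply2: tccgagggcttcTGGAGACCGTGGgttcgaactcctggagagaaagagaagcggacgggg
Aligned on the motif with no gap, Ripply3 shared 28 of 60 bases (46.7%) with Ripply1 and also 28 of 60 with Ripply2. In Emx2 and its paralog Emx1, the capitals mark the codons of WFQNRR, a part of the recognition helix of the homeodomain, codons 202 to 207 of 253 in Emx2 and codons 206 to 211 of 257 in Emx1. The whole stretches shown are in exon 3 of 3 of each gene (chr19:59463880-59463942 for Emx2 and chr6:85203909-85203971 for Emx1, both plus strand):
Emx2: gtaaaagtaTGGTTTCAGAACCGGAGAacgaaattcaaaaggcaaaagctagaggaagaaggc
Emx1: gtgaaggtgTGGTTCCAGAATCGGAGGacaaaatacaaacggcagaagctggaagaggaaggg
Here 49 of 63 bases (77.8%) were the same.

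RefSeq (GRCm38.p6) gave promoter windows for Tbx1 and Emx2, each from 250 bases before to 50 bases after a start. Tbx1 had 2 windows. The 250 bases before its inner start (chr16:18588900-18589149, minus strand) are shown because they held the only match in the Tbx1 windows that lies before a start. It is a GGGCGG box, the motif of SP and KLF factors, read on the other strand and given in capitals:
Tbx1: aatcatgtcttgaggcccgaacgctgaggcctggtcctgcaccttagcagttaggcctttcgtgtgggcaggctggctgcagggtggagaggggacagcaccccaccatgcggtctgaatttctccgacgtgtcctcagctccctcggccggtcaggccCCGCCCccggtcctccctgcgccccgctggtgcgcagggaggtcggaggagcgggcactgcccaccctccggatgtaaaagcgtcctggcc
GGGCGG was found in 35.7% of the 32851 promoter windows, 2 times in this Tbx1 window, 0 times in the other and 2 times in the Emx2 window. On either strand, these 3 windows held no E-box (CACGTG, in 7.15% of all windows), TEAD motif (CATTCC, 14.7%), AP1 motif (TGAGTCA, 5.20%) or CRE (TGACGTCA, 1.79%). They also held no nuclear receptor element (AGGTCA, 16.3%), STAT motif (TTCNNNGAA, 8.30%), T-box element (AGGTGTGA, 1.28%), SOX motif (CATTGTT, 3.78%) or octamer (ATTTGCAT, 1.74%). The search says only that these letters are not in these windows.

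Total counts ran from 24074132 to 35301962 per library in the time course and from 6944904 to 27912928 in the passage experiment. Levels are given as raw counts and as CPM (counts scaled to library size with the TMM factors of edgeR). The 2 tables were made and scaled separately, so levels are compared only within a table. In every group the summed CPM of 6 markers of undifferentiated ESCs (Pou5f1, Sox2, Nanog, Esrrb, Zfp42 and Klf4) was high, between 3550 and 3861 in the time course and between 2714 and 4206 in the passage libraries, where it differed between media and passages. Of 6 markers of definitive and pharyngeal endoderm, 3 were at or under 3 counts in every time-course library (Pax9, Nkx2-1 and Cer1), and the sum of all 6, of which Pax1 is 1, ran from 0.601 to 0.909 CPM in Serum/LIF and from 1.52 to 2.25 CPM over the EMM groups. The sum of 6 neural markers ran from 135 to 162 CPM in Serum/LIF and from 215 to 223 at 3 h, 160 to 193 at 9 h and 146 to 162 at 24 h. That of 6 primitive endoderm markers ran from 13.8 to 15 in Serum/LIF and from 25 to 25.5 at 24 h, and that of 6 trophoblast markers from 56.7 to 57.4 in Serum/LIF, 51.3 to 52.8 at 3 h, 71.5 to 75.4 at 9 h and 76.6 to 79.1 at 24 h. Most of the trophoblast rise at 24 h was Tfap2c (43.3 ± 0.0750 to 58.0 ± 1.31 CPM), and the means of Gata3, Krt7 and Eomes also rose. Cdx2 went the other way (2.39 ± 0.452 to 1.15 ± 0.312), and Elf5 had at most 3 counts in every library. At 24 h the sums of 6 fibroblast markers (42.4 to 49.9) and 6 mesoderm markers (12.8 to 14.2) lay below those of Serum/LIF (61.0 to 64.0 and 16.9 to 18.2), while at 9 h the mesoderm sums (19.2 to 20.6) lay above. Brachyury (T) made up most of the mesoderm fall at 24 h, from 14.9 ± 1.20 to 9.19 ± 0.614 CPM. Kdr of the same list rose from 0.602 ± 0.256 to 2.64 ± 0.300. The part of these markers in the time-course values was not tested. These are bulk libraries, so a change in the share of cells that express a gene and a change in RNA per cell cannot be told apart.

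Ripply3 rose in EMM within 3 h, stayed at that level to 9 h and rose again by 24 h. It had 107, 135 and 118 counts in the Serum/LIF libraries, 741, 773 and 936 at 3 h, 980, 803 and 736 at 9 h, and 1920, 1870 and 1995 at 24 h. All 9 EMM libraries lay above the Serum/LIF libraries, the 3 h and 9 h libraries overlapped, and all 24 h libraries lay above both. The mean level was 4.45 ± 0.0636 CPM (SD, n = 3) in Serum/LIF, 26 ± 1.28 at 3 h, 27.2 ± 2.50 at 9 h and 66.2 ± 3.29 at 24 h. The fitted log2 fold change over Serum/LIF was 2.54 (SE 0.08) at 3 h, 2.61 (SE 0.08) at 9 h and 3.89 (SE 0.08) at 24 h, a 5.83-fold, 6.11-fold and 14.8-fold difference. Of the difference in CPM reached at 24 h, 34.9% was present at 3 h and 36.9% at 9 h. By log2 fold change Ripply3 ranked 11th of 16049 tested genes at 3 h, 10th at 9 h and 2nd at 24 h.

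Emx2 was near the limit of counting in Serum/LIF, was highest at 3 h of EMM, and was lower at 9 h than at either 3 h or 24 h. It had 3, 3 and 2 counts in Serum/LIF, 68, 84 and 79 at 3 h, 36, 20 and 20 at 9 h, and 44, 47 and 50 at 24 h. No 2 of the 4 groups overlapped in CPM. The mean levels were 0.0996 ± 0.0236 CPM (SD, n = 3) in Serum/LIF, 2.46 ± 0.209 at 3 h, 0.817 ± 0.253 at 9 h and 1.61 ± 0.156 at 24 h. No Serum/LIF library had more than 3 counts, the floor used here, so folds are bounds against 3 counts per library, and floors cover counting error only. Emx2 was at least 21.9-fold higher at 3 h, at least 7.27-fold higher at 9 h and at least 14.4-fold higher at 24 h. The mean at 9 h was 0.332 times that at 3 h, and the mean at 24 h was 1.98 times that at 9 h.

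Tbx1 was low throughout, and its EMM groups could not be ordered. It had 5, 7 and 1 counts in Serum/LIF, 24, 26 and 11 at 3 h, 13, 15 and 22 at 9 h, and 14, 13 and 13 at 24 h. Each EMM library lay above each Serum/LIF library, while the 3 h, 9 h and 24 h libraries overlapped. The means were 0.159 ± 0.106 CPM (SD, n = 3) in Serum/LIF, 0.664 ± 0.297 at 3 h, 0.551 ± 0.196 at 9 h and 0.457 ± 0.00439 at 24 h. The fitted log2 fold change was 1.99 (SE 0.50) at 3 h, 1.73 (SE 0.52) at 9 h and 1.48 (SE 0.54) at 24 h.

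These time-course values are a description and were not tested, since the same contrasts chose the 3 genes. For the background over all genes, a call needed a log2 fold change beyond 1 in either direction and an adjusted p (edgeR's quasi-likelihood test, Benjamini-Hochberg) under 0.01. Over all 16049 genes tested, 1.70% were called higher and 2.52% lower at 3 h. At 9 h these shares were 2.05% and 3.50%, and at 24 h they were 3.50% and 4.69%.

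**Figure D1:**
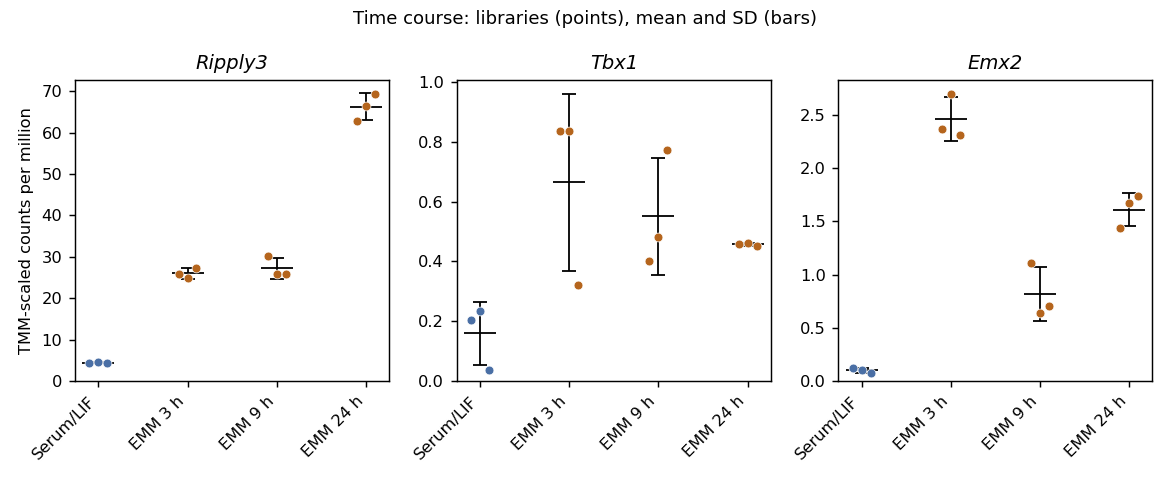
Level of Ripply3, Tbx1 and Emx2 in TMM-scaled CPM in the 12 time-course libraries, on a separate linear axis for each gene. Points are libraries (blue Serum/LIF, brown EMM) and bars are the mean and SD of 3; Ripply3 steps up at 3 h and again at 24 h (mean 66.2), Emx2 dips at 9 h (mean 0.817), and the EMM groups of Tbx1 overlap.

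Per kilobase of exon, the 3 genes were far apart in level. The study's methods count reads by intron and exon class, and which class the time-course table holds is not stated, so these levels and percentiles assume exon reads. At 24 h Ripply3 had 43.2 CPM per kb, above 92.1% of the tested genes, whose median was 3.89 CPM per kb. Emx2 had 0.538 CPM per kb and Tbx1 0.130 CPM per kb, above 21.9% and 6.59% of the tested genes. In Serum/LIF, Ripply3 was already at 2.91 CPM per kb, above 45.1% of the tested genes, while Tbx1 (0.0452) and Emx2 (0.0332) were among the lowest.

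In long-term culture Ripply3 was high in EMM at both passages and low in the other media, and its EMM level at P20 was 24.4% of that at P10. At P10 it had 772, 462 and 316 counts in EMM, 9, 16 and 19 in Serum/LIF and 10, 2 and 5 in 2i/LIF. At P20 it had 174, 326 and 220 counts in EMM, 17, 39 and 13 in Serum/LIF and 1, 6 and 3 in 2i/LIF. All EMM libraries lay above all others, and every P10 EMM library lay above every P20 EMM library on the CPM scale. The mean level in EMM was 44.1 ± 3.76 CPM (SD, n = 3) at P10 and 10.8 ± 0.806 at P20. In Serum/LIF it was 0.994 ± 0.427 at P10 and 1.32 ± 0.403 at P20, and in 2i/LIF 0.484 ± 0.453 and 0.206 ± 0.0695. The Serum/LIF libraries of the 2 passages overlapped, and so did those of 2i/LIF.

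The passage libraries are other samples than those of the time course, but earlier results of them were known when the genes were chosen, so these p-values describe these libraries and are not independent evidence. With edgeR's quasi-likelihood test, Ripply3 was higher in EMM than in Serum/LIF at P10, by 5.48 on the log2 scale (SE 0.28, adjusted p = 4.00e-11). The P20 value was 2.97 (SE 0.27, adjusted p = 1.57e-07). These are 44.7-fold and 7.81-fold differences. Over all 16054 genes tested, 6.67% were called higher and 10.5% lower against Serum/LIF at P10. The P20 shares were 3.44% and 6.19%. Against 2i/LIF, Ripply3 was higher at P10 by 6.64 (SE 0.33, edgeR adjusted p = 9.94e-12), where 11% of genes were called higher. The P20 difference was 5.53 (SE 0.37, edgeR adjusted p = 4.62e-10), where 16.0% were. Without P10 2i/LIF replicate 1, the library with 10 counts, the P10 value was 7.51.

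The fall within EMM from P10 to P20 was also larger than the spread between replicates. Ripply3 fell by 2.03 on the log2 scale (SE 0.22, edgeR adjusted p = 1.47e-06), and 2.95% of tested genes were called lower in the same comparison. The difference between EMM and Serum/LIF was smaller at P20 than at P10 by 2.52 on the log2 scale (SE 0.41, edgeR adjusted p = 1.88e-04 for the interaction of medium and passage). Of all tested genes, 3.34% were called with such a negative interaction and 5.06% with a positive one. Ripply3 ranked 22nd of 16054 genes by log2 fold change over Serum/LIF at P10 and 38th at P20.

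Neither Tbx1 nor Emx2 had enough counts to pass edgeR's filter (filterByExpr) in the passage table, so 1 of the 3 genes was tested there across all genes. Tbx1 had 1, 3 and 4 counts in EMM at P10 against 3, 2 and 1 in Serum/LIF and 0, 0 and 1 in 2i/LIF. At P20 it had 8, 13 and 9 in EMM against 4, 13 and 5 in Serum/LIF and 2, 0 and 3 in 2i/LIF. EMM and Serum/LIF overlapped at both passages, and EMM lay above 2i/LIF in every library at P20 only. The mean at P20 was 0.454 ± 0.0312 CPM (SD, n = 3) in EMM and 0.422 ± 0.164 in Serum/LIF, a difference of 0.0321 CPM (exact two-sided permutation p = 0.700). At P10 the difference was 0.184 CPM (exact two-sided permutation p = 0.400), and it ran from 0.0467 without P10 EMM replicate 3 to 0.315 without P10 EMM replicate 1. No difference of Tbx1 between EMM and Serum/LIF was seen beyond the spread between replicates at either passage. With 3 libraries against 3, the smallest p this exact test can give is 0.100.

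Emx2 had no count in any of the 3 EMM libraries at P10. With totals of 20111927, 10551862 and 7329835 counts, 0 counts allow levels of up to 0.149, 0.284 and 0.409 CPM of the unscaled library totals. The Serum/LIF libraries had 3, 1 and 0 counts and the 2i/LIF libraries 0, 2 and 0, so none of the 9 P10 libraries exceeded the floor and no fold is given. At P20 the EMM libraries had 11, 10 and 9 counts, Serum/LIF 0, 2 and 4, and 2i/LIF 1, 0 and 0. Emx2 in EMM at P20 (0.478 ± 0.157 CPM, SD, n = 3) lay above Serum/LIF (0.137 ± 0.165) in every library, with a lowest EMM value of 0.359 against a highest Serum/LIF value of 0.321 CPM. The difference was 0.340 CPM (exact two-sided permutation p = 0.100, the smallest possible).

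Within EMM, the P20 level of Emx2 was at least 1.60-fold that at P10, and the EMM level at P20 was at least 1.84-fold that in 2i/LIF, each against a floor of 3 counts per library. Each of these had an exact two-sided permutation p of 0.100. When all genes with a total count of 1 or more were fitted by edgeR, Emx2 passed both thresholds in these 2 comparisons (adjusted p = 0.00293 and 0.00945) and did not against Serum/LIF at P20 (adjusted p = 0.216). Tbx1 passed in none of the 6 passage comparisons of that fit. By CPM per kb at P20 in EMM, Ripply3 (7.03) lay far above Emx2 (0.159) and Tbx1 (0.129). The libraries of Emx2 and Tbx1 overlapped on this scale, so these 2 were not ordered.

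**Figure D2:**
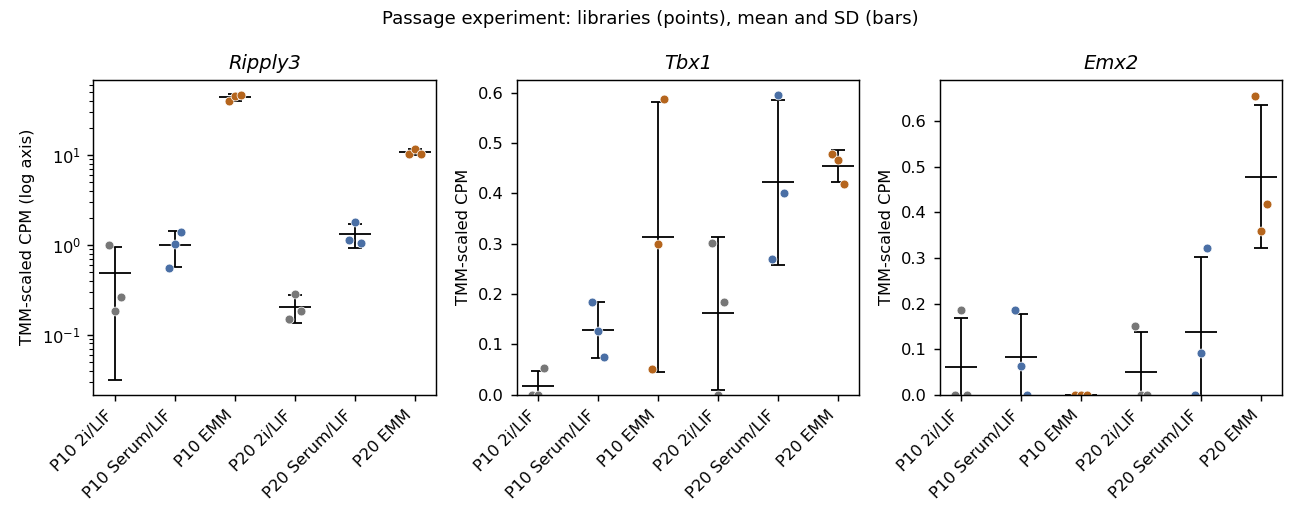
Level of Ripply3 (log axis), Tbx1 and Emx2 (linear axes) in TMM-scaled CPM in the 18 passage libraries. Points are libraries (grey 2i/LIF, blue Serum/LIF, brown EMM) and bars are the mean and SD of 3; Ripply3 is highest in EMM at P10 (44.1) and P20 (10.8), Emx2 is at 0 in EMM at P10, and Tbx1 in EMM overlaps Serum/LIF. SD bars are cut at 0.

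Summed markers differed between the media in the passage libraries. The sum of the 6 markers of undifferentiated ESCs ran from 2714 to 3020 CPM in Serum/LIF and from 3750 to 4206 in EMM at P10, and from 3246 to 3498 and from 2844 to 2908 at P20, so that it was higher in EMM at P10 and lower at P20 with no overlap. The single genes did not all follow the sum. At P10 the largest part was Pou5f1, with 1149 ± 64.4 CPM in Serum/LIF and 1754 ± 212 in EMM. Nanog was lower in EMM there (296 ± 29.8 and 247 ± 10.1). At P20 Nanog (486 ± 26.8 and 225 ± 7.99), Zfp42 and Klf4 were lower in EMM. The means of Pou5f1, Sox2 and Esrrb were not. The summed CPM of 6 fibroblast markers ran from 143 to 171 in Serum/LIF and from 18.4 to 23.3 in EMM at P10, and from 229 to 455 and from 9.12 to 12.2 at P20. Col1a1, a collagen chain, made up most of the Serum/LIF sums, with 121 ± 18.5 CPM (SD, n = 3) in Serum/LIF and 0.694 ± 0.440 in EMM at P10. In P10 EMM 4 of the 6 were at the floor (Col1a2, Col3a1, Postn and Lum). Thy1 made up most of the EMM sum and went the other way, with 19.6 ± 3.14 CPM in EMM and 8.98 ± 1.66 in Serum/LIF at P10. The summed CPM of 6 mesoderm markers ran from 17.4 to 48.5 in Serum/LIF and from 6.02 to 8.09 in EMM at P10, and from 19.5 to 20.8 and from 2.98 to 4.95 at P20. Brachyury (T) carried this difference at P10, with 32.2 ± 16.5 CPM in Serum/LIF and 0.234 ± 0.144 in EMM, while Kdr, a receptor of vascular and early mesoderm, had 1.49 ± 0.590 and 5.95 ± 0.654. Neural markers at P10 summed to 187 to 204 CPM in Serum/LIF and 88.8 to 104 in EMM, and trophoblast markers to 79.3 to 90.2 and 24.7 to 32.3. Most of the neural difference was Nes, with 118 ± 11 CPM in Serum/LIF and 13.2 ± 1.53 in EMM, while Sox1 had 0.597 ± 0.449 and 8.17 ± 1.10 and Tubb3 66.8 ± 5 and 73.0 ± 5.08. After 20 passages the ranges of both overlapped, with neural sums of 123 to 134 in Serum/LIF and 129 to 136 in EMM, and trophoblast sums of 72.8 to 88.0 and 69.6 to 75.3. Single genes still differed at P20. Nes was lower in EMM (43.8 ± 4.61 and 24.2 ± 2.45 CPM), while Sox1 (2.64 ± 0.279 and 9.72 ± 0.973) and Tubb3 (71.8 ± 3.01 and 88.7 ± 2.22) were higher. Krt7 (10.1 ± 4.20 and 1.16 ± 0.259) and Cdx2 (2.43 ± 0.682 and 0.311 ± 0.102) were lower in EMM. Tfap2c was higher (54.7 ± 2.29 and 61.5 ± 3.16). Primitive endoderm sums were lower in EMM (6.99 to 8.03 CPM) than in Serum/LIF (11 to 14.5) at P10 and overlapped at P20 (14.4 to 22.1 and 14.5 to 20.2). Definitive and pharyngeal endoderm sums overlapped at P10 (0.618 to 1.10 in EMM and 0.667 to 0.954 in Serum/LIF). At P20 they were higher in EMM (1.58 to 1.91 and 0.321 to 0.875). Most of the P20 EMM sum was Sox17, also a primitive endoderm marker (1.07 ± 0.280 against 0.337 ± 0.0855). The part of all these markers in the differences of Ripply3, Tbx1 and Emx2 was not tested. In 2i/LIF the fibroblast sums were 2.89 to 4.23 CPM at P10 and 5.87 to 6.32 at P20, below those of EMM. The mesoderm sums in 2i/LIF were 42.7 to 57.3 CPM at P10 and 9.34 to 11.1 at P20, above those of EMM. At P10 nearly all of this was T (49.2 ± 7.24 CPM), and Kdr was at 0.394 ± 0.0765, below EMM. Ripply3 was 99.5-fold and 46.2-fold higher in EMM than in 2i/LIF.

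Other T-box genes are the nearest relatives of Tbx1. Of 16 in the list, 11 were tested in the time course, where 0 were called by edgeR or DESeq2 at 3 h (3 higher and 2 lower at an unadjusted p under 0.05), 1 was called higher at 9 h, and 3 were called higher (Tbx3, Tbx15 and Tbx18) and 1 lower at 24 h. Tbx18, a regulator of somites and the sinus node, was the gene called at 9 h and rose most at 24 h. It had 15, 16 and 9 counts at 24 h against 2, 1 and 1 in Serum/LIF and was at least 4.07-fold higher (edgeR adjusted p = 1.97e-04). At 9 h it was at least 2.48-fold higher (edgeR adjusted p = 0.00369). That call did not hold under DESeq2, without EMM 9 h replicate 1 or 2, or without Serum/LIF replicate 2 or 3, with adjusted p up to 0.0196 over all alternatives. Tbx3, a naive pluripotency gene as well as a limb and heart regulator, rose by 1.27 (SE 0.06, edgeR adjusted p = 3.11e-10) to 242 ± 12.3 CPM at 24 h. Tbx6, which directs paraxial mesoderm, fell by 1.24 on the log2 scale at 24 h (SE 0.34, edgeR adjusted p = 0.00639). The Tbx6 call was lost under DESeq2, without EMM 24 h replicate 1 or 3, without any 1 Serum/LIF library, and with the replicate numbers of the descriptions as a block, with adjusted p up to 0.0527 over all alternatives.

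At the passages 12 of the 16 were tested. At P10, 1 was called higher and 1 lower. By edgeR 0 rose (1 at an unadjusted p under 0.05, and 0 by DESeq2) and 2 fell (T and Tbx20) at P20. Tbx3 was higher in EMM than in Serum/LIF at P10 by 2.16 (SE 0.08, edgeR adjusted p = 1.28e-12), with 280 ± 15.1 against 62.7 ± 1.72 CPM. At P20 its level was 95.5 ± 0.975 CPM in EMM and 126 ± 17.2 in Serum/LIF. Brachyury (T), the marker of nascent mesoderm, was lower in EMM at P10, by a log2 value of -7.14 (SE 0.52, edgeR adjusted p = 4.03e-09). The P20 value was -3.52 (SE 0.36, edgeR adjusted p = 6.10e-07). Its Serum/LIF libraries at P10 were uneven, with 724, 602 and 183 counts. The median log2 fold change of the list was 0.23 at 24 h, -0.02 at P10 and -0.22 at P20 (-0.26 with genes at the floor set to their bound), beside 0.00, 0.01 and 0.00 over all genes. Of all tested genes, 3.50% were called higher and 4.69% lower at 24 h, 6.67% and 10.5% at P10, and 3.44% and 6.19% at P20.

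Ripply1, Ripply2 and the TLE genes hold the partners and relatives of Ripply3. Of 8, 7 were tested in each experiment, and none was called by edgeR or DESeq2 at 3, 9 or 24 h or at P10, with medians of -0.13, -0.10, 0.01 and 0.66. At an unadjusted p under 0.05, 2 were higher and 4 lower at 3 h, 2 and 3 at 9 h, 3 and 2 at 24 h, and 5 and 2 at P10. At P20, 1 was higher and 1 lower, with a median of -0.36. All-gene medians lay between -0.01 and 0.01 in these 5 comparisons, and at most 6.67% of all genes were called higher and 10.5% lower. With 7 genes, 0 called lies near these shares. Ripply1, a segmentation co-repressor, rose at P20 by 1.35 (SE 0.34, edgeR adjusted p = 0.00401), from 2.54 ± 0.614 CPM in Serum/LIF to 6.42 ± 0.668 in EMM. That call was lost without any 1 P20 EMM library and without P20 Serum/LIF replicate 2 or 3, with adjusted p up to 0.0266 over all alternatives. Over the time course Ripply1 stayed between means of 4.61 and 5.40 CPM. Tle5 (Aes in the annotation), a short TLE protein that acts against the full-length ones, was lower in EMM at P20 by a log2 value of -1.26 (SE 0.10, edgeR adjusted p = 2.96e-08), with 52.8 ± 2.70 against 126 ± 3.04 CPM.

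Genes of forebrain patterning, the best known setting of Emx2, numbered 14, of which 9 were tested. In the time course 1 was called lower at 3 h, 2 higher and 1 lower at 9 h, and 4 higher and 1 lower at 24 h, and the median log2 fold change was 0.31, 0.69 and 0.91. The all-gene medians were -0.01, 0.00 and 0.00, and 3.50% of all tested genes were called higher and 4.69% lower at 24 h. Those called higher at 24 h included Dmrta2, Lhx2 and Pax6, transcription factors of the early telencephalon and eye field. Dmrta2 rose by 1.30 (SE 0.16, edgeR adjusted p = 6.75e-06), from 1.70 ± 0.204 to 4.17 ± 0.824 CPM. Otx2, the forebrain and primed epiblast factor, fell by 1.06 on the log2 scale at 3 h (SE 0.08, edgeR adjusted p = 8.84e-08) and by 1.32 at 24 h (SE 0.08, edgeR adjusted p = 6.89e-09). Without EMM 3 h replicate 2 the value at 3 h was -0.96, inside the fold threshold.

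At P10, 0 of the 9 were called higher by edgeR, by DESeq2 or at an unadjusted p under 0.05, and 3 were called lower (Hesx1 and Gli3 among them), with a median of -1.13. Of all tested genes, 6.67% were called higher and 10.5% lower at P10, with a median of 0.01. Hesx1, a repressor of the anterior neural plate, had 2, 1 and 2 counts in EMM against 18, 10 and 15 in Serum/LIF and was at least 3.20-fold lower (edgeR adjusted p = 1.85e-04). At P20, only Otx2 was called, higher in EMM by 1.30 (SE 0.22, edgeR adjusted p = 1.28e-04), with 848, 1383 and 1192 counts in EMM against 342, 486 and 222. The median was then -0.17.

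Genes of the pharyngeal arches and the second heart field, the tissues of Tbx1, moved in both directions. Of 22, 17 were tested in the time course and 15 at the passages. At 3 h 1 was called higher and 0 lower, at 9 h and at 24 h 2 were called higher and 2 lower, and at P10 4 rose and 4 fell. In the P20 comparison 0 rose and 3 fell. The genes higher at P10 were Eya1, Fgf10, Gbx2 and Hes1, and those lower included Foxc1, Fgf8 and Wnt5a. For the counts of 0 (DESeq2 also called 0), 5 were lower at 3 h and 1 was higher at P20 at an unadjusted p under 0.05. The medians were -0.06, 0.06, -0.03, 0.15 and -0.03, and those over all genes lay between -0.01 and 0.01. Of all tested genes, 3.50% were called higher and 4.69% lower at 24 h, 6.67% and 10.5% at P10, and 3.44% and 6.19% at P20. Pax1, a pharyngeal pouch and sclerotome factor, rose at 3 h by 1.69 (SE 0.35, edgeR adjusted p = 9.98e-04), from 4, 5 and 11 counts to 20, 30 and 26. At 24 h it was higher by 1.27 (SE 0.37, edgeR adjusted p = 0.00896). This last call was lost under DESeq2, with only the groups compared, without EMM 24 h replicate 1 or 2, without Serum/LIF replicate 1 or 2, and with the replicate number (of the titles or of the descriptions) as a block, with adjusted p up to 0.0505. Pax8, a thyroid and kidney factor, fell by 2.65 on the log2 scale at 24 h (SE 0.25, edgeR adjusted p = 3.38e-07).

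Eya1, a phosphatase and co-activator of the pharyngeal region, was higher in EMM at P10 by 1.61 (SE 0.19, edgeR adjusted p = 1.40e-06), with 10.0 ± 1.33 against 3.32 ± 0.406 CPM. At P20 its means were 3.67 and 3.92 CPM. Foxc1, a mesoderm and arch mesenchyme factor, had 1, 1 and 0 counts in EMM at P10 against 14, 14 and 17 in Serum/LIF and was at least 3.37-fold lower (edgeR adjusted p = 4.29e-04). Fgf8, a signal of the arches and of mesoderm, was lower in EMM at P20 by a log2 value of -2.78 (SE 0.44, edgeR adjusted p = 8.42e-05). It had also fallen by 1.42 on the log2 scale at 24 h (SE 0.21, edgeR adjusted p = 4.44e-05).

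Retinoic acid acts upstream of both Ripply3 and Tbx1 in the pharynx, and the list holds genes of its synthesis, binding, receptors and breakdown. Of 21, 15 were tested in the time course and 16 at the passages. At 3 h 1 was called higher and 0 lower, at 9 h 1 higher and 2 lower, and at 24 h 1 higher and 3 lower. At P10 0 rose and 7 fell, and at P20 0 rose and 5 fell. DESeq2 also called 0 in each of these cases, and at an unadjusted p under 0.05 there were 5 lower at 3 h, 2 higher at P10 and 0 higher at P20. The median was -0.09, -0.30 and -0.35 over the time course, -1.06 at P10 (-0.71 with genes at the floor at their bound) and -0.32 at P20. All-gene medians lay between -0.01 and 0.01. Of all tested genes, 4.69% were called lower at 24 h, 10.5% at P10 and 6.19% at P20, and 6.67% and 3.44% were called higher at P10 and P20. Aldh1a3, which makes retinoic acid, was the gene called at 3 h, higher by 1.59 (SE 0.34, edgeR adjusted p = 0.00123). Dhrs3, which returns retinal to retinol, rose at 24 h by 1.10 (SE 0.15, edgeR adjusted p = 1.52e-05).

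Crabp1, which binds retinoic acid in the cytosol, fell by 2.47 on the log2 scale at 24 h (SE 0.13, edgeR adjusted p = 8.36e-10), from 9.13 ± 0.682 to 1.64 ± 0.226 CPM. It was also lower in EMM after 10 passages (log2 value -2.78, edgeR adjusted p = 7.45e-07) and after 20 (-2.71, edgeR adjusted p = 1.64e-06). Cyp26a1, which breaks retinoic acid down and is induced by it, had 3, 0 and 1 counts in EMM at P10 against 130, 74 and 36 in Serum/LIF and was at least 17.2-fold lower (edgeR adjusted p = 4.83e-06). At P20 it was lower by a log2 value of -2.71 (SE 0.43, edgeR adjusted p = 1.90e-04). The summed fibroblast and mesoderm markers given above, carried by Col1a1 and T, were higher in the same Serum/LIF passage libraries, though not every marker was, and their part in these list counts was not tested.

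**Figure D3:**
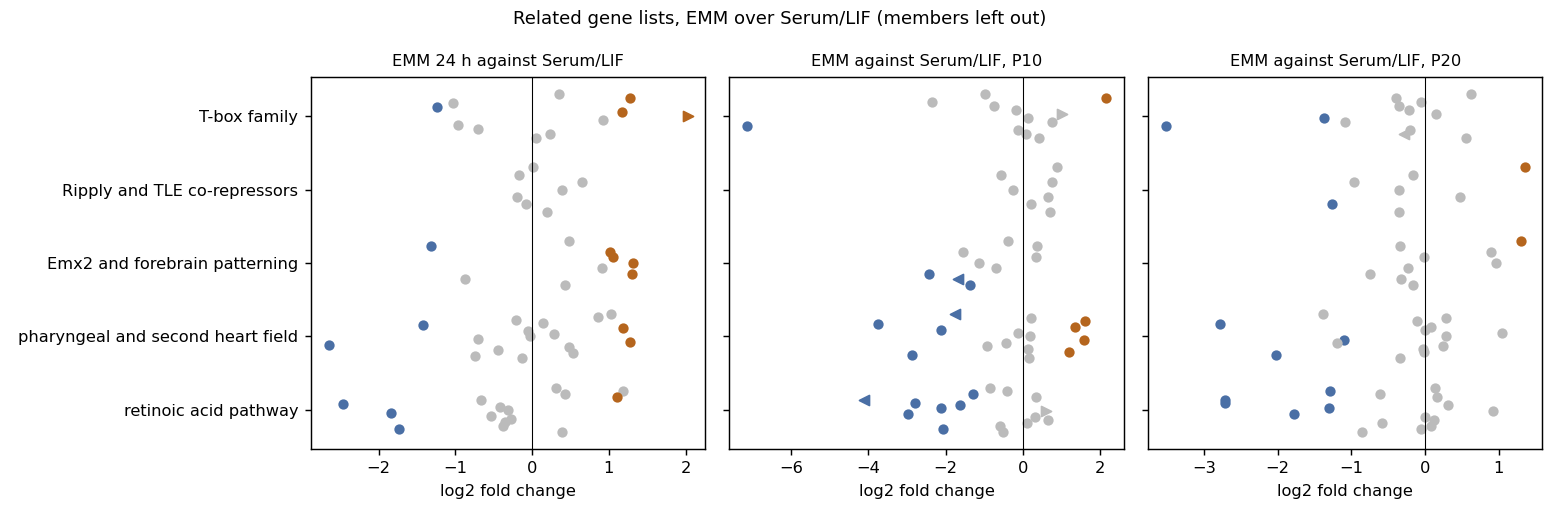
Log2 fold change of EMM over Serum/LIF for each tested gene of the 5 lists at 24 h, P10 and P20, with Ripply3, Tbx1 and Emx2 left out. Brown marks genes called higher, blue genes called lower and grey the others, and triangles are bounds for genes with 1 group at or under 3 counts; the retinoic acid list has 0 genes called higher and 7 called lower at P10.

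Within 250 kb of Ripply3, 6 other genes were tested in the time course and 5 at the passages, and none was called by edgeR or DESeq2 in any of the 5 comparisons with Serum/LIF. Of all tested genes, 1.70% to 6.67% were called higher and 2.52% to 10.5% lower in these comparisons. With so few genes, 0 called lies near these shares. At an unadjusted p under 0.05, 4 were higher and 1 lower at 24 h, 2 and 0 at P10, and 3 and 0 at P20. Their log2 fold changes ran from -0.25 to 0.39 at 24 h (median 0.29), from -0.02 to 0.44 at P10 (median 0.15) and from 0.14 to 0.75 at P20 (median 0.43). Hlcs, which attaches biotin to carboxylases and starts 14.8 kb upstream, had log2 fold changes of -0.25 (SE 0.06) at 24 h and 0.06 (SE 0.17) at P10. Vps26c, a subunit of an endosomal sorting complex, reached the top value of 0.75 (SE 0.08) at P20. Dyrk1a, a kinase gene, had 0.25 (SE 0.04) at 24 h and 0.44 (SE 0.11) at P10.

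Around Tbx1, 11 genes were tested in the time course and 12 at the passages, and in each comparison 0 were called higher by edgeR and 1 lower. At an unadjusted p under 0.05, 2 to 5 were higher, and DESeq2 called 1 higher, at P20 only. In the time course this was Cldn5, an endothelial tight junction gene that starts 186 kb upstream. It fell by 1.65 on the log2 scale at 3 h (SE 0.33, edgeR adjusted p = 8.35e-04), by 2.53 at 9 h (SE 0.38, edgeR adjusted p = 5.97e-05) and by 1.17 at 24 h (SE 0.32, edgeR adjusted p = 0.00549). Its counts were low, 17, 17 and 18 in Serum/LIF and 13, 5 and 7 at 24 h. The 24 h call was lost under DESeq2, with no filter, with only the groups compared, without EMM 24 h replicate 2 or 3, without Serum/LIF replicate 1 or 3, and with the replicate numbers of the descriptions as a block, with adjusted p up to 0.0482 over all alternatives. That block also ended the 3 h call (adjusted p = 0.0116). At the passages it was Sept5, a septin gene that starts 39.3 kb upstream of Tbx1, lower in EMM by a log2 value of -3.05 at P10 (SE 0.38, edgeR adjusted p = 3.13e-06). Its P20 value was -2.35 (SE 0.33, edgeR adjusted p = 2.23e-05). The P20 EMM libraries were uneven, with 7, 29 and 9 counts, and this value ran from -2.98 to -2.12 over all alternatives, each of which kept the call. Near Emx2, 2 genes were tested in each experiment and none was called by edgeR or DESeq2, with 0 or 1 past an unadjusted p of 0.05 in each comparison and direction. At most 6.67% of all tested genes were called higher and 10.5% lower in these comparisons. The counts of 0 near Tbx1 and Emx2 lie near these shares. Over all tested genes of chromosome 16 the median log2 fold change was 0.08 at 24 h and 0.07 at P10 (469 and 477 genes), and over those of chromosome 19 it was -0.01 and 0.03 (514 and 536 genes).

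**Figure D4:**
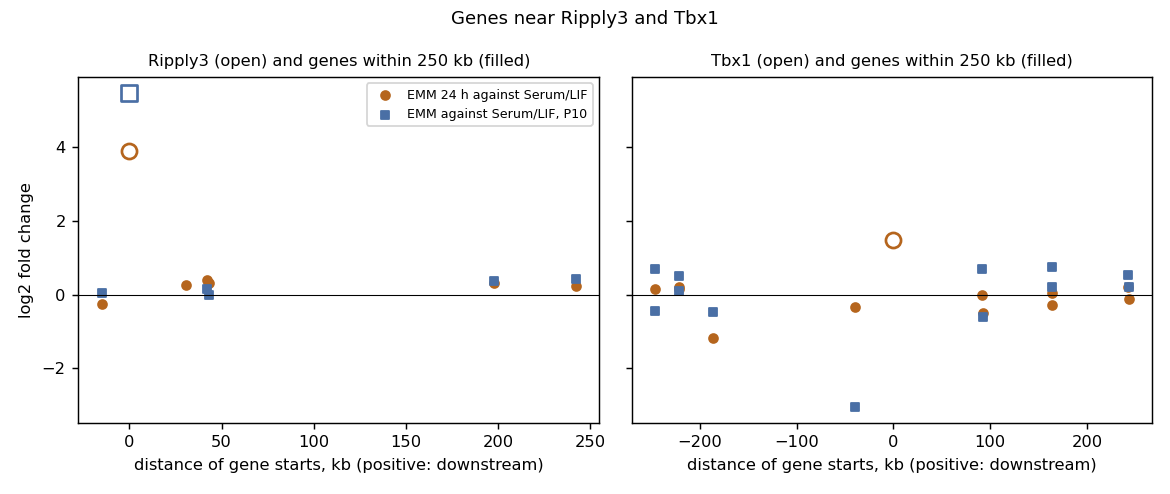
Log2 fold change of EMM over Serum/LIF (vertical) against the distance of each gene's start from the start of Ripply3 (left) or Tbx1 (right) in kb, for tested genes within 250 kb. Brown circles are 24 h, blue squares P10, and open symbols Ripply3 and Tbx1 themselves; Ripply3 stands at 3.89 and 5.48 while its neighbours lie between -0.25 and 0.44.

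The genes most like each of the 3 were found by Pearson's r between group-mean log2 CPM values (prior count 2), centred within each experiment, over the 10 groups. The 1764 candidates passed the filter of both tables and spanned at least 1 log2 unit between group means in each. The groups share libraries and scaling, so r is a description. For Ripply3 the closest were Ankrd33b, Nckap5, Pdzd2, Xkrx and Spink10, with r from 0.972 to 0.980. Ankrd33b, an ankyrin repeat gene, had mean levels of 15.5, 88.7, 55.5 and 94.1 CPM in Serum/LIF and at 3, 9 and 24 h. It had 129 CPM in EMM at P10 and 41.5 at P20 against 4.88 and 9.59 in Serum/LIF. Spink10, of a protease inhibitor family, went from 0.508 to 2.32 CPM over the time course and to 55.6 CPM in EMM at P10 and 12.6 at P20.

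For Tbx1 the closest were Sgms2, Bhlhe40, Gata6, Hrk and D930048N14Rik, with r from 0.859 to 0.934. Sgms2, a sphingomyelin synthase, had mean levels of 6.06, 20.2, 15.1 and 15.4 CPM in Serum/LIF and at 3, 9 and 24 h. Gata6, the primitive endoderm factor, had 0.752, 1.26, 1.69 and 1.86 CPM. For Emx2 they were Cxcr4, Lonrf3, E530011L22Rik, Bhlhe40 and 2900089D17Rik, with r from 0.761 to 0.884. Cxcr4, a chemokine receptor, had 1.36, 5.14, 3.05 and 2.90 CPM over the time course. Bhlhe40, a stress and clock responsive repressor, stood in both lists, with 66.8, 206, 205 and 152 CPM. The group means of Tbx1 and Emx2 at the passages rest on 0 to 13 counts per library. Between the 3 genes themselves r was 0.642 for Ripply3 and Tbx1, 0.396 for Ripply3 and Emx2 and 0.731 for Tbx1 and Emx2 over the 10 groups.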

How the data were processed

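The time course was deposited as whole-number counts per gene without normalization. Per the labels, its submitters' processing notes name STAR and featureCounts with mm10, whereas the study's methods name STAR and HTSeq, with reads counted by intron and exon class; which class this table holds is not stated. The passage data were deposited as estimated counts per gene, unnormalized, for which the notes name STAR and Salmon; 9.982% were not whole and were rounded. Versions are not given in the sources used here. The time-course kit is not stated to keep strand. The comparisons with Serum/LIF were fitted with edgeR 4.0.16 (R 4.3.3): after filterByExpr by group 16049 and 16054 genes remained, TMM factors scaled the libraries, and all groups of an experiment entered 1 quasi-likelihood model without covariates. P-values were adjusted by Benjamini-Hochberg across the tested genes. Calls need both a log2 fold change beyond 1 in either direction and an adjusted p below 0.01, as in the study's methods. Tbx1 and Emx2 in the passage table were compared by exact permutation. A group was at the floor when every library had at most 3 counts. The 3 genes and the gene lists were chosen with earlier results of these data known. Outside the 3 genes, the text names per list the largest called rise and fall at 24 h, P10 and P20, any gene called alone, called neighbours and the 5 most alike genes; the other genes named in small counts, Tbx3 and Fgf8 at 24 h, Hlcs, Vps26c and Dyrk1a were added after their values were seen; some genes of these lists are not reported here by name. Alternatives were DESeq2 size factors, library totals, no filter, DESeq2 1.42.0, only the groups compared, a replicate block and each library left out; list counts without Serum/LIF replicate 1 and a block with the descriptions' replicate numbers were added after the data were seen. The fits were tested on simulated data.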

Additional observations from a re-analysis of the deposited data

Results flagged for a closer look

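The difference between EMM and Serum/LIF changed between P10 and P20 for Ripply3 and for 5 of the 19 list genes and neighbours that the naming rule gave and that were tested at the passages, by edgeR's interaction of medium and passage past the same thresholds. Over all tested genes, 5.06% had such a positive and 3.34% such a negative difference. Many of the 19 were named for the largest called change at P10 or P20, which favours a difference between the passages, so nothing is read from their number. For Ripply3 the log2 value at P20 minus that at P10 was -2.52 (adjusted p = 1.88e-04). Tbx3 showed -2.56 (SE 0.12, adjusted p = 1.01e-10), Eya1 -1.72 (SE 0.27, adjusted p = 1.22e-04) and Tle5 -1.47 (SE 0.14, adjusted p = 5.73e-07). In the other direction, Brachyury (T) showed 3.62 (SE 0.79, adjusted p = 0.00245) and Otx2 1.68 (SE 0.31, adjusted p = 5.42e-04). Groups of 3 libraries are too small for the test of single outlying samples that was planned for larger groups.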

How the results depend on the processing

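All 180 values of Ripply3, Tbx1 and Emx2 with 1 library left out, and 114 of 116 under the other alternatives, kept their call or moved by less than 1 SD between replicates. The other 2 came from the fit without a filter, in which Emx2 passed both thresholds for EMM against 2i/LIF at P20 (log2 value 3.87) and for P20 against P10 in EMM (5.91); these fitted values against groups at the floor are no bounds. Ripply3 in EMM against Serum/LIF ran from 5.20 to 5.81 at P10 and from 2.84 to 3.29 at P20 with 1 library left out. The Tbx1 difference at P20 ran from -0.0442 to 0.119 CPM. The replicate block gave 5.49 at P10 and 2.98 at P20 for Ripply3 and changed no call of it. Replicate numbers follow the titles. The descriptions number the EMM time-course libraries 1 higher, so 9 of the 18 same-number pairs of the time course, those with Serum/LIF, depend on which is right. By the descriptions, r ran from -0.132 to 0.280 (median 0.0231) over 15 pairs, and that block gave 2.52, 2.59 and 3.87 for Ripply3 and 2.23, 1.97 and 1.72 for Tbx1 at 3, 9 and 24 h. By the titles, r ran from -0.134 to 0.207 (median 0.00672) over 18 pairs of the time course and from -0.212 to 0.299 (median 0.00334) over 45 pairs of the passages. Of 12 and 18 libraries, 4 and 6 correlated best with their own number, so the numbers were not taken as pairs. Of 300 list counts under the other alternatives 257 stayed within 1.5 times, 36 were larger and 7 smaller; of 30 without Serum/LIF replicate 1, 26 stayed, 1 was larger and 3 were smaller. With the adjusted p alone, the retinoic acid list had 8 genes lower at 24 h in place of 3 and 7 at 9 h in place of 2. DESeq2 called 0 T-box genes lower at 24 h in place of 1. Tbx1 and Emx2 had 0 to 13 counts per library at the passages, which limits the precision of their levels there.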
